A study of Mus musculus with 12 samples.

Results

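A set of 10 core genes of bone morphogenetic protein (BMP) signalling were followed in young and old intestinal stem cells (ISCs): the receptors Bmpr1a and Bmpr2, the signal carriers Smad1, Smad5 and Smad4, the inhibitors Smad6 and Smad7, and the target genes Id1, Id2 and Id3. They were chosen by name, as the core of the pathway, with earlier results of these data known. They are 10 of the 54232 genes in the count table. All 10 were among the 13368 genes tested. None of the 10 passed the threshold between young and old ISCs in either isolation.

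The libraries were made from the poly(A) RNA of ISCs sorted from the mouse small intestine, with a protocol that reads the 3′ ends of transcripts. There were 12 libraries, 3 in each of 4 groups, and each came from 1 mouse. The SM6 groups were WT mice of strain C57/Bl6 aged 2 months (young) or 22 months (old), whose ISCs were sorted by surface markers. The Lgr5-GFP groups were Lgr5-EGFP-IRES-CreERT mice (as the labels spell it; the study's methods write CreERT2) of the same 2 ages, which carry a GFP and Cre cassette inserted at the stem cell gene Lgr5. The labels give the surface-marker gate for every library, although the study describes the GFP reporter as the way the second set was isolated. Strain, genotype and isolation changed together and cannot be told apart, and the labels list neither a treatment nor a batch.

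BMP ligands bind a pair of type I and type II receptors, which phosphorylate Smad1 and Smad5. These join Smad4, enter the nucleus and switch on targets such as the Id genes, whose products lack a DNA-binding region and hold bHLH transcription factors away from DNA. In the intestine the pathway is known to be strongest in the villus and to be held down around the crypt base by antagonists from the surrounding mesenchyme, where low BMP signalling favours the stem cell state. Smad6 and Smad7 are themselves switched on by the pathway and close a feedback loop.

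Sequence before or across a RefSeq start site of 4 members is shown because it carries letters to which Smad proteins are known to bind. RefSeq promoter entries (build GRCm38.p6, from 250 bases before to 50 bases after a start site) were matched by symbol for 7 of the 10 members, with 9 entries. Id1, Smad4 and Smad7 had no entry. The letters GTCTAGAC, GGCGCC and CAGAC were searched on both strands. No letters of 1 motif contain another in full. Of 32851 promoters, 0.213% held GTCTAGAC, 11.9% held GGCGCC and 49.6% held CAGAC. Smad6, on the minus strand, held GTCTAGAC across its start site. The capitals in each line mark the letters found.

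Smad6, chr9:64022056-64022123, minus strand: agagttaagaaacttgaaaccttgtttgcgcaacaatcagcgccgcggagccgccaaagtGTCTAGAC
Id2, chr12:25096258-25096342, minus strand: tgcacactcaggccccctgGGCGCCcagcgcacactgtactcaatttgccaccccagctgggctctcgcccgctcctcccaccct
Bmpr1a, chr14:34502699-34502784, minus strand: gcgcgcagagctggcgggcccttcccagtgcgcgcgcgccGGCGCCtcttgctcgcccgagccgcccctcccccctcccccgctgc
Id3, chr4:136143643-136143671, plus strand: tgtcctcggcgtCAGACcagcctaaggaa

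The Id2 and Bmpr1a stretches lay outside annotated exons of GENCODE vM21 but inside the spans of these genes. Those spans are chr12:25093799-25097140 and chr14:34410734-34503341. The Id3 stretch lay inside an Id3 exon, because an annotated transcript starts further upstream, and the last 4 bases of the Smad6 stretch were exonic. GGCGCC was also present in the Bmpr2 entry and in 2 of the Smad5 entries. On GRCm38, GENCODE vM21 places Bmpr2 at chr1:59763400-59879014, Smad1 at chr8:79338395-79399518, Smad5 at chr13:56703010-56742377 and Id1 at chr2:152736251-152737410, all protein-coding. A match is a description of the letters and was not tested as a binding site.

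The shallowest library held 970472 counts, the deepest 3815425 and the median library 1424340. Levels are in CPM, the usual count scaled to library size, after edgeR's TMM correction of the totals. The stem cell markers Lgr5, Ascl2, Olfm4, Smoc2, Axin2 and Sox9 were detected in every group. Their summed level was lower in old ISCs, with 7090 to 8352 CPM in SM6 old against 11740 to 14580 CPM in SM6 young, and 9437 to 10750 CPM in Lgr5-GFP old against 11510 to 13120 CPM in Lgr5-GFP young. Most of this sum was Olfm4. In SM6, 2 of the 6 were called, Olfm4 (log2 fold change -0.84, adjusted p = 0.00342 by edgeR) and Sox9 (-1.01, adjusted p = 0.00358), whereas Lgr5 (-0.39), Smoc2 (-0.20), Axin2 (-0.35) and Ascl2 (0.17) were not, and in Lgr5-GFP none of the 6 was called. Mesenchymal markers summed to 0 to 6 counts in a library, with Pdgfra, Col3a1, Dcn and Lum at 0 throughout and 0 of 7 reaching the filter. Endothelial markers summed to 0 to 8 counts and immune markers to 0 to 15 counts. Paneth cell markers ranged from 10520 to 268500 CPM. Defensin genes, products of Paneth cells, held 23.1% of the counts in SM6 old replicate 3 and 23.2% in Lgr5-GFP young replicate 1, against 1.26% to 12.4% in the other 10 libraries. Whether a member's level reflects fewer cells of a type or less RNA per cell cannot be told apart in these bulk samples.

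Old and young libraries were compared within SM6, within Lgr5-GFP and on average over both with edgeR's quasi-likelihood test, and calls were made at a Benjamini-Hochberg adjusted p under 0.05. No member was called in SM6, where 2.42% of all tested genes were, and the lowest adjusted p of a member was 0.155. No member was called in Lgr5-GFP, against 0.471% of all genes, with a lowest adjusted p of 0.519. On average over both isolations no member was called, against 2.66% of all genes, with a lowest adjusted p of 0.141. At an unadjusted p under 0.05 there were 2 members lower in SM6 (13.1% of all genes passed that level), 0 in Lgr5-GFP (9.79%), and 1 higher and 2 lower on average (12.8%). The likelihood ratio test of edgeR, limma voom and DESeq2 also called no member for which they gave an adjusted p. DESeq2 gave none for Smad6 within SM6, within Lgr5-GFP and for the difference of the age effects, nor for Smad7 in that difference. At an unadjusted p under 0.05 these tools had 3, 3 and 2 members in SM6, beside 14.3%, 15.1% and 11% of all genes, and 0 by each in Lgr5-GFP, beside 11%, 10.3% and 7.78%. The old and young libraries did not overlap for 2 members in SM6, where 17.5% of all genes did not, and for 1 member in Lgr5-GFP, where 14.6% did not.

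The median log2 fold change of the 10 members, old over young, was -0.08 in SM6 and -0.02 in Lgr5-GFP, beside -0.01 and -0.03 over all tested genes. The 95% interval of the log2 fold change lay within a doubling either way for 6 members in SM6 and for 7 in Lgr5-GFP. Leaving out 1 library moved the estimate of a member by up to 0.593 in SM6 and 0.286 in Lgr5-GFP, both for Smad7, with Smad6 left aside for its few counts. These intervals are what limits the statement for each gene, and a p that misses the threshold does not show that young and old ISCs were alike.

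**Figure D1:**
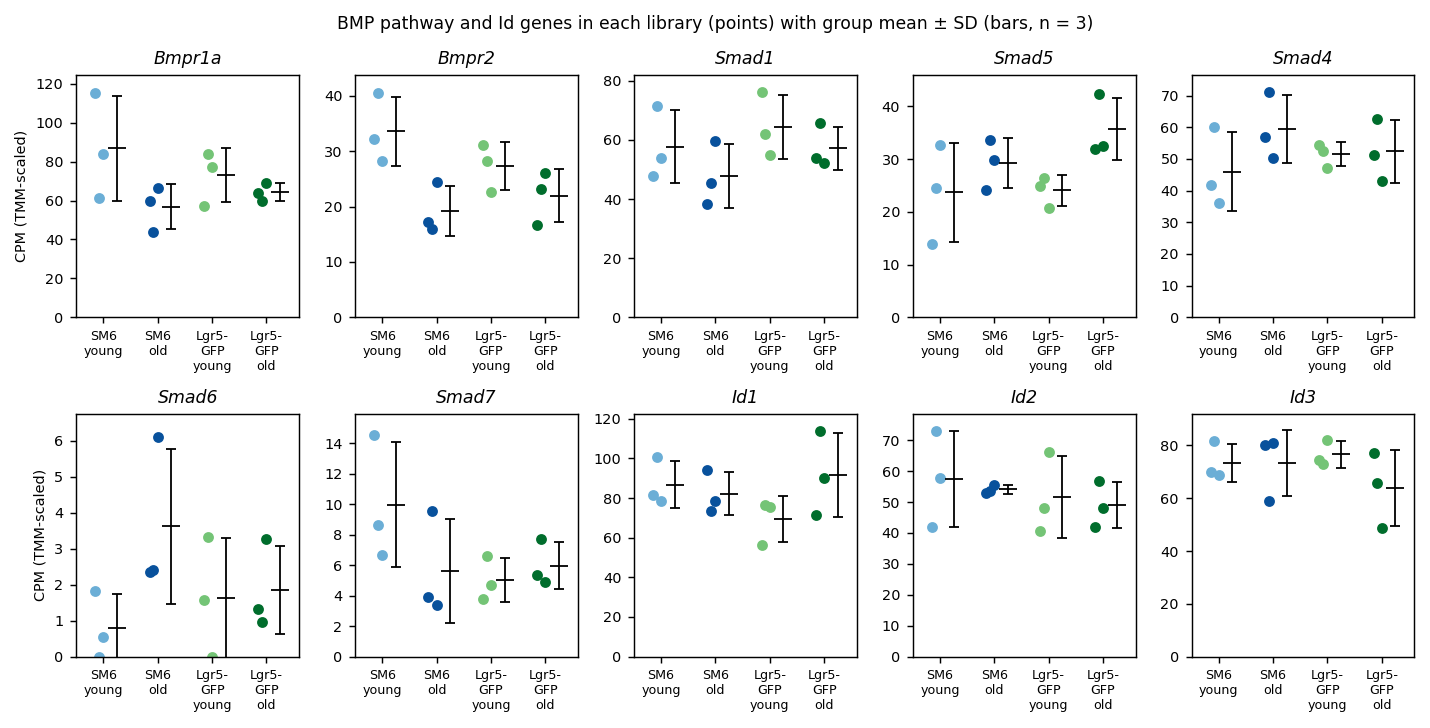
CPM of each of the 10 genes (y axis, TMM-scaled, starting at 0) in every library (points) of the 4 groups (x axis), with bars for the group mean ± SD, n = 3. The old and young points separate for Bmpr2 and Smad6 in SM6 and for Smad5 in Lgr5-GFP, and overlap in all other cases.

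Bmpr1a encodes the type I BMP receptor that phosphorylates Smad1 and Smad5 in most tissues. Its level was 115.3, 83.7 and 61.4 CPM in the 3 SM6 young libraries and 60.0, 66.5 and 43.9 CPM in the SM6 old libraries. The groups overlapped, since the highest old library lay above the lowest young one. Old against young gave a log2 fold change of -0.61 (SE 0.225, 95% interval -1.08 to -0.15), with an unadjusted p of 0.0122 and an adjusted p of 0.196 by edgeR's quasi-likelihood test. Without SM6 young replicate 1, the library with the highest level, it was -0.355. In Lgr5-GFP ISCs the level was 57.3, 77.5 and 84.0 CPM in young and 64.0, 69.1 and 59.8 CPM in old libraries. The old libraries lay inside the range of the young ones, and the log2 fold change was -0.17 (SE 0.225, adjusted p = 0.872 by edgeR). Scaled to library totals alone, this estimate became 0.00311.

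Bmpr2 encodes the type II receptor that binds BMPs together with Bmpr1a and activates it. It was at 32.2, 28.3 and 40.5 CPM in SM6 young and at 17.2, 24.4 and 16.0 CPM in SM6 old libraries. Every old library lay below every young one. This gave a log2 fold change of -0.79 (SE 0.273, 95% interval -1.36 to -0.23) with an unadjusted p of 0.00802 and an adjusted p of 0.155 by edgeR. In the Lgr5-GFP libraries it was at 31.2, 22.7 and 28.2 CPM in young and at 16.7, 26.0 and 23.2 CPM in old libraries. These ranges overlapped, and the log2 fold change was -0.35 (SE 0.271, adjusted p = 0.74 by edgeR). On average over both isolations, Bmpr2 had a log2 fold change of -0.57 (adjusted p = 0.141 by edgeR) and Bmpr1a one of -0.39 (adjusted p = 0.266 by edgeR). The summed stem cell markers given above, mostly Olfm4, separated old from young libraries in both isolations, whereas these receptors did so only for Bmpr2 in SM6. In SM6, summed goblet and enterocyte markers were higher in every old than every young library, and summed immediate early genes, given below, were lower. The part of all these markers in the receptor values was not tested.

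Smad1 is a receptor-regulated Smad, one of the proteins the activated receptor phosphorylates. Its level was 47.9, 53.8 and 71.5 CPM in SM6 young and 38.2, 59.7 and 45.5 CPM in SM6 old libraries. In Lgr5-GFP ISCs it was 76.2, 54.8 and 62.1 CPM in young and 54.0, 52.0 and 65.6 CPM in old libraries. Old and young overlapped in both isolations. The log2 fold change was -0.26 (SE 0.219) in SM6 and -0.19 (SE 0.214) in Lgr5-GFP, with adjusted p = 0.694 and 0.836 by edgeR, and the second became 0.0175 when scaled to library totals alone.

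Smad5 shares the role of Smad1. It was at 14.0, 32.7 and 24.6 CPM in SM6 young and at 24.2, 29.9 and 33.6 CPM in SM6 old libraries, which overlapped. Among Lgr5-GFP mice it was at 24.9, 20.8 and 26.5 CPM in young and at 32.0, 32.5 and 42.4 CPM in old libraries. There, every old library lay above every young one. Old against young gave a log2 fold change of 0.54 in Lgr5-GFP (SE 0.276, 95% interval -0.03 to 1.11, adjusted p = 0.546 by edgeR) and 0.29 in SM6 (SE 0.284, adjusted p = 0.746 by edgeR). The SM6 estimate ran from 0.0179 without SM6 young replicate 1 to 0.613 without SM6 young replicate 2. On average it was 0.41, with an unadjusted p of 0.0472 and an adjusted p of 0.382 by edgeR. An annotated gene of type misc_RNA shares 100 bases with the first part of the Smad5 gene, far from the 3′ end that this protocol reads.

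Smad4, the shared partner that Smad1 and Smad5 need in the nucleus, was at 41.9, 36.0 and 60.0 CPM in SM6 young and at 56.9, 50.2 and 71.1 CPM in SM6 old libraries. It was at 54.5, 47.3 and 52.6 CPM in Lgr5-GFP young and at 51.3, 43.1 and 62.7 CPM in Lgr5-GFP old libraries. The ranges overlapped in both isolations. This gave a log2 fold change of 0.38 (SE 0.221, adjusted p = 0.513 by edgeR) in SM6 and 0.01 (SE 0.22, adjusted p = 0.999 by edgeR) in Lgr5-GFP.

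Smad6 blocks Smad1 and Smad5 at the receptor and was at the limit of detection. The SM6 young libraries held 3, 1 and 0 counts and the SM6 old libraries 3, 9 and 3 counts. The Lgr5-GFP young libraries held 5, 0 and 8 counts and the Lgr5-GFP old libraries 2, 4 and 1 counts. Scaled to depth, every SM6 old library lay above every young one, the nearest pair at 2.34 and 1.82 CPM, while the Lgr5-GFP libraries overlapped. Of the SM6 old counts, 9 came from replicate 2. Pooled over libraries, 15 old counts against 4 young counts in SM6 gave a ratio of 4.52 with a counting interval of 1.44 to 18.7, and 7 against 13 in Lgr5-GFP gave a ratio of 0.95 with an interval of 0.321 to 2.56. These 95% intervals cover counting error, if each count is a separate molecule, and not the spread between mice. By edgeR the adjusted p was 0.416 in SM6. The fitted log2 estimate there ran from 1.45 without SM6 old replicate 2 to 3.28 without SM6 young replicate 1 and was called in none of the 12 fits that left out a library.

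Smad7 competes with receptor-regulated Smads of both the BMP and the TGF-beta branch. It was at 14.6, 6.65 and 8.67 CPM in SM6 young and at 3.90, 3.39 and 9.59 CPM in SM6 old libraries. SM6 old replicate 3, 1 of the pair of libraries with the high defensin share, lay inside the young range and the other old libraries lay below it. The log2 fold change was -0.83 (SE 0.51, 95% interval -1.89 to 0.22, adjusted p = 0.539 by edgeR) and ran from -1.43 without that library to -0.448 without SM6 young replicate 1, which had the highest level. In Lgr5-GFP ISCs it was at 3.78, 4.73 and 6.62 CPM in young and at 5.33, 4.88 and 7.72 CPM in old libraries. These overlapped, and the log2 fold change was 0.23 (SE 0.535, adjusted p = 0.949 by edgeR). Each Smad7 value rested on 5 to 24 counts in a library.

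Id1 is among the most direct targets of BMP signalling, and its level is often read as a measure of the pathway. It was at 81.3, 78.7 and 100.5 CPM in SM6 young and at 94.3, 78.7 and 73.5 CPM in SM6 old libraries. Old against young gave a log2 fold change of -0.08 (SE 0.199, 95% interval -0.49 to 0.34, adjusted p = 0.934 by edgeR). In ISCs of Lgr5-GFP mice it was at 56.1, 75.6 and 76.6 CPM in young and at 71.3, 90.3 and 113.8 CPM in old libraries. Old and young overlapped in both isolations. The Lgr5-GFP log2 fold change was 0.41 (SE 0.2, 95% interval -0.01 to 0.82, adjusted p = 0.519 by edgeR).

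Id2 shares the dimerization partners of Id1. It was at 41.9, 57.6 and 73.0 CPM in SM6 young and at 53.0, 55.7 and 53.5 CPM in SM6 old libraries, so that the old libraries lay inside the young range. In Lgr5-GFP ISCs it was at 40.6, 66.2 and 48.0 CPM in young and at 42.0, 48.0 and 56.9 CPM in old libraries, again inside. This gave a log2 fold change of -0.08 (SE 0.226, adjusted p = 0.939 by edgeR) in SM6 and -0.05 (SE 0.23, adjusted p = 0.976 by edgeR) in Lgr5-GFP, and the second turned to 0.132 when scaled to library totals alone.

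Id3 was at 69.8, 68.7 and 81.7 CPM in SM6 young and at 80.3, 80.8 and 59.1 CPM in SM6 old libraries. In the Lgr5-GFP set it was at 74.7, 82.2 and 72.9 CPM in young and at 77.3, 48.8 and 65.6 CPM in old libraries. Old and young overlapped in both isolations. The log2 fold change was 0.01 (SE 0.194, adjusted p = 0.999 by edgeR) in SM6, where it turned to -0.135 when scaled to library totals alone, and -0.25 (SE 0.195, adjusted p = 0.753 by edgeR) in Lgr5-GFP.

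**Figure D2:**
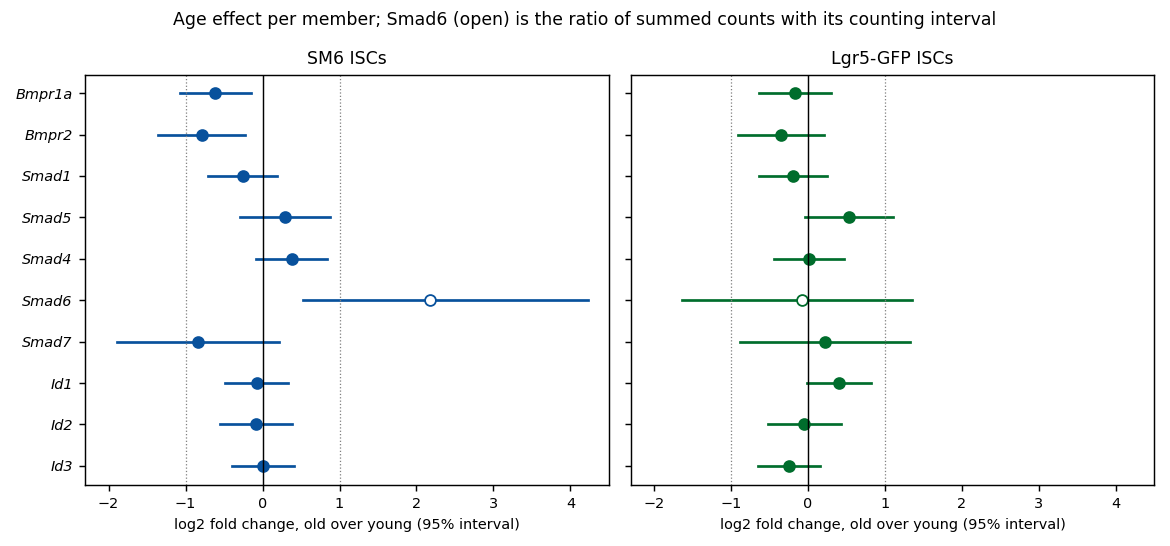
Log2 fold change of old over young ISCs (x axis) with its 95% interval (line) for each gene in SM6 (left) and Lgr5-GFP (right), with dotted lines at a doubling either way. For Smad6 the open circle is the ratio of summed counts with its counting interval, 4.52 in SM6 and 0.95 in Lgr5-GFP. The SM6 intervals of Bmpr1a and Bmpr2 lie below 0, and no member passed the threshold adjusted over all tested genes.

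The age effects of the 2 isolations were compared directly, as the Lgr5-GFP effect minus the SM6 effect. No member was called, beside 0.658% of all genes, and the lowest adjusted p was 0.623. No member reached an unadjusted p under 0.05 either, where 9.43% of all genes did. The estimates were least precise here, with 3 of 10 intervals inside a doubling. For Id1 the difference was 0.48 (95% interval -0.10 to 1.06) and for Smad7 it was 1.06 (95% interval -0.47 to 2.59). Levels in the 2 isolations were also compared over both ages. No member was called, beside 0.352% of all genes, and none reached an unadjusted p under 0.05, as 7.69% of all genes did. Here 8 of 10 intervals lay inside a doubling, and the log2 difference was -0.09 for Id1, -0.17 for Id2 and -0.07 for Id3, Lgr5-GFP against SM6.

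Whether the Id genes varied together between mice was examined over the 12 libraries on the log2 CPM scale. Pearson's r between Id1 and Id2 was 0.533 (permutation p = 0.0728, adjusted over the 3 pairs 0.218) and Spearman's rho was 0.406 (permutation p = 0.192, adjusted 0.45). Without the 2 libraries farthest from the median of Id1, r was 0.394, and on deviations from the group means it was 0.67. Scaled to library totals alone, r was 0.743 and the adjusted permutation p was 0.0196. Spearman's rho was 0.559 under that scaling (adjusted permutation p = 0.12). The linear measure therefore passed the threshold under one scaling only, and the rank measure under neither. Id1 and Id3 had r = -0.143 and rho = -0.0699 (permutation p = 0.639 and 0.835, adjusted 0.639 and 0.835), and r turned to 0.00382 without the 2 farthest libraries and to 0.385 when scaled to library totals alone. Id2 and Id3 had r = 0.257 and rho = 0.329 (permutation p = 0.425 and 0.3, adjusted 0.638 and 0.45). Without the 2 farthest libraries r of this pair was 0.207, and scaled to library totals alone it was 0.518 (adjusted permutation p = 0.132).

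The genes whose levels followed each Id gene most closely were ranked by Pearson's r over the 12 libraries, among 6293 genes with a mean of at least 20 CPM. For Id1 they were the ribosomal protein gene Rpl23a (r = 0.861), the mitochondrial ribosomal RNA mt-Rnr2 (r = 0.85) and the mitochondrial enzyme gene Idh2 (r = 0.834). For Id2 they were the gap junction gene Gjb1 (r = 0.832), Ncoa6 (r = 0.832) and Sh3gl2 (r = 0.81). For Id3 they were Gcdh (r = 0.936), Ap4s1 (r = 0.909) and the tight junction gene Cldn3 (r = 0.879). The lists of the 3 Id genes had no gene in common, and the points share library composition and depth. A top rank among so many genes is reached in part by selection, so the coefficients are descriptions.

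Other genes of the pathway were taken from lists of ligands, receptors, antagonists, regulators, targets and Id partners, with the TGF-beta branch beside them, 75 genes in all. Of these, 40 passed the filter and 19 had no count in any library. Between old and young ISCs, 1 of the 40 rose in SM6, 0 were called in Lgr5-GFP and 1 fell on average, where 2.42%, 0.471% and 2.66% of all tested genes were called, so these counts were near the background. At an unadjusted p under 0.05 there were 9, 7 and 5 of the 40, beside 13.1%, 9.79% and 12.8% of all genes. The median log2 fold change of the 40 was 0.04 in SM6 and -0.01 in Lgr5-GFP.

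Few BMP ligand genes had counts in the sorted cells. Of 13 ligand genes, 7 had no count in any library, among them Bmp4 and Bmp5, and 3 passed the filter. Bmp3, which encodes an atypical member that can oppose other BMPs, had the highest level of the ligands in CPM. It was at 106.8, 113.6 and 140.9 CPM in SM6 young and at 75.6, 78.7 and 63.1 CPM in SM6 old libraries, which did not overlap. Old against young gave a log2 fold change of -0.73 (SE 0.203, 95% interval -1.15 to -0.31), with an adjusted p of 0.0572 by edgeR. Its side of the threshold changed with the setting: DESeq2 gave -0.713 (adjusted p = 0.0391) and library totals alone -0.876 (adjusted p = 0.0369), whereas limma voom gave -0.677 (adjusted p = 0.0628) and the defensin share as a covariate -0.544 (adjusted p = 0.266). Apart from leaving out libraries, the alternatives gave adjusted p-values from 0.0156 to 0.266. It was called in 3 of the 12 fits that left out a library. In Lgr5-GFP ISCs Bmp3 ranged from 70.0 to 115.5 CPM in young and from 73.3 to 109.8 CPM in old libraries, and the log2 fold change was -0.08 (adjusted p = 0.952 by edgeR). The difference between isolations did not pass the threshold (adjusted p = 0.478 by edgeR). Bmp7 had log2 fold changes of -0.12 and -0.34 in SM6 and Lgr5-GFP.

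Of 8 further receptors and co-receptors, 4 passed the filter and none was called. Bmpr1b, the other BMP type I receptor of its kind, had no count. Rgmb, a co-receptor that strengthens BMP binding, had a log2 fold change of -0.50 in SM6 (adjusted p = 0.209 by edgeR) and 0.21 in Lgr5-GFP (adjusted p = 0.781). Acvr2b, a type II receptor shared with activins, had -0.49 (adjusted p = 0.362) and -0.06 (adjusted p = 0.972).

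Extracellular antagonists were the emptiest list. Of 14 genes, 8 had no count in any library, Nog and Grem1 among them, which are known from the mesenchyme around crypts, and 3 passed the filter. The mesenchymal markers were likewise at 0 to 6 counts in a library. Fstl1 had a log2 fold change of -0.39 in SM6 (adjusted p = 0.647 by edgeR) and 0.89 in Lgr5-GFP (adjusted p = 0.221), and Twsg1 had 0.09 and 0.29. None of the 3 was called.

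Among 14 tested intracellular regulators, Skil was called on average over both isolations. Its product SnoN is a repressor that binds Smad proteins, and the gene is known as a rapid target of TGF-beta and activin. Skil was at 68.0, 67.6 and 55.7 CPM in SM6 young and at 29.6, 29.2 and 45.5 CPM in SM6 old libraries. It was at 56.1, 70.0 and 56.3 CPM in Lgr5-GFP young and at 24.0, 61.0 and 18.3 CPM in Lgr5-GFP old libraries. Old and young did not overlap in SM6, whereas Lgr5-GFP old replicate 2 lay inside the young range. Skil fell by 0.84 on the log2 scale on average (SE 0.209, 95% interval -1.27 to -0.41, adjusted p = 0.0266 by edgeR), with estimates of -0.88 in SM6 and -0.80 in Lgr5-GFP that did not pass alone (adjusted p = 0.142 and 0.327). Both were called when Lgr5-GFP old replicate 2 was left out, at -1.48 in Lgr5-GFP (adjusted p = 0.00825) and -0.882 in SM6 (adjusted p = 0.0275). Leaving out Lgr5-GFP old replicate 3 instead gave -0.522 in Lgr5-GFP. On average the call was kept in 5 of the 12 fits that left out a library. It was lost, with an adjusted p of up to 0.0984, without SM6 young replicate 1 or 2, SM6 old replicate 1 or 2, Lgr5-GFP young replicate 2, or Lgr5-GFP old replicate 1 or 3. With the defensin share as a covariate the estimate was -0.802 (adjusted p = 0.0289). Immediate early genes, which respond to tissue handling, had a lower summed level in old libraries, at 302 to 330.4 CPM in SM6 old against 365.3 to 484.9 CPM in SM6 young, and 418 to 550.7 CPM in Lgr5-GFP old against 564.9 to 733.5 CPM in Lgr5-GFP young. Most of this sum was Jun and Ier2. In SM6 only Jun of the 8 genes was called (-0.87, adjusted p = 0.00801 by edgeR), while Egr1 (-1.48), Fos (-0.81), Ier2 (-0.18) and Junb (-0.04) had estimates below 0, Zfp36 (0.41) and Dusp1 (0.49) had estimates above 0, and Atf3 held 4 old against 1 young count. None of the 8 was called in Lgr5-GFP, where Fos (-1.22) and Junb (-1.03) were among those below 0, and Jun and Egr1 were called on average (-0.65 and -1.09, adjusted p = 0.00371 and 0.0492). The stem cell markers Olfm4 and Sox9 were also called lower on average (-0.58 and -0.70, adjusted p = 0.00306 and 0.00324), and the enterocyte markers Fabp1 and Fabp2 higher (2.62 and 0.73, adjusted p = 0.00173 and 0.0286). Lgr5-GFP old replicate 2, the old library with the highest Skil level, had enterocyte markers at 11340 CPM, against 2251 and 1515 CPM in the other Lgr5-GFP old libraries. The part of these genes in the Skil result was not tested.

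Bambi, a decoy receptor that lacks a kinase domain, was the only pathway gene called for a difference between the age effects. It was at 8.50, 6.65 and 2.17 CPM in SM6 young and at 10.9, 4.07 and 40.7 CPM in SM6 old libraries. In Lgr5-GFP ISCs it was at 48.2, 17.0 and 12 CPM in young and at 7.33, 3.25 and 1.93 CPM in old libraries. The SM6 groups overlapped and the Lgr5-GFP groups did not. The Lgr5-GFP effect minus the SM6 effect was -4.19 on the log2 scale (SE 0.956, 95% interval -6.16 to -2.21, adjusted p = 0.0367 by edgeR). The highest levels, 40.7 and 48.2 CPM, were in the 2 libraries with 23.1% and 23.2% of counts in defensin genes. It was not called with limma voom (-3.02, adjusted p = 0.288) or with at least 10 counts in 3 libraries (-4.18, adjusted p = 0.0523), and DESeq2 gave it no adjusted p. All 6 Paneth cell, 5 of 7 enterocyte and 2 of 6 goblet markers were called in the same direction for this difference. With the defensin share as a covariate the difference was -0.619 (adjusted p = 0.933). The defensin gene Defa24 itself had a difference of -4.06 (adjusted p = 0.0176 by edgeR), so that fit cannot tell the 2 apart. The part of these cell types in the Bambi result was not tested. Without SM6 old replicate 3 the difference was -2.89 and without Lgr5-GFP young replicate 1 it was -3.28. Neither passed the threshold (adjusted p = 0.208 and 0.207). The call was also lost without SM6 young replicate 2 or 3 and without Lgr5-GFP old replicate 2 or 3.

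Id4, the fourth member of the Id family and 1 of 4 tested further targets, differed between the isolations. It was at 7.28, 5.54 and 6.50 CPM in SM6 young and at 7.01, 19.0 and 5.59 CPM in SM6 old libraries. It was at 3.78, 2.84 and 4.14 CPM in Lgr5-GFP young libraries, and each Lgr5-GFP old library held 1 count, against 25 counts in the 3 young libraries (adjusted p for age = 0.336 by edgeR). Every Lgr5-GFP library lay below every SM6 library. The log2 difference, Lgr5-GFP against SM6, was -2.20 (SE 0.461, 95% interval -3.16 to -1.25, adjusted p = 0.0303 by edgeR). With limma voom it was -2.00 and not called (adjusted p = 0.0669). The call was kept in 4 of the 12 fits that left out a library. It was lost without SM6 young replicate 1 or 3, SM6 old replicate 2, Lgr5-GFP young replicate 2 or 3, or any Lgr5-GFP old library, where the adjusted p reached 0.164. Enteroendocrine markers also differed between the isolations, with 227.6 to 621.5 CPM in the SM6 libraries and 53.0 to 203.8 CPM in the Lgr5-GFP libraries. In this comparison 4 of 6 enteroendocrine, 5 of 6 goblet and 2 of 7 enterocyte markers were called lower in Lgr5-GFP, and 3 of 8 immediate early genes higher. The part of these cell types in the Id4 result was not tested. The expressed targets Hes1 (0.06 and 0.04 in SM6 and Lgr5-GFP) and Klf4 (0.52 and -0.74) were not called for age.

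Of the 6 bHLH genes on the list of Id partners, whose binding to Id proteins was not tested, Atoh1 was called. It encodes the bHLH factor that sets secretory cell fate. Atoh1 was at 38.2, 17.7 and 43.4 CPM in SM6 young and at 79.5, 63.1 and 75.9 CPM in SM6 old libraries, and every old library lay above every young one. This gave a log2 fold change of 1.15 (SE 0.292, 95% interval 0.55 to 1.75, adjusted p = 0.0327 by edgeR). It was at 50.7, 28.4 and 30.2 CPM in Lgr5-GFP young and at 24.0, 38.2 and 19.3 CPM in Lgr5-GFP old libraries, where the log2 fold change was -0.46 (adjusted p = 0.684 by edgeR). The difference between the 2 age effects was -1.61 and did not pass the threshold (adjusted p = 0.103 by edgeR). It did pass with DESeq2 (-1.59, adjusted p = 0.0481), edgeR's likelihood ratio test (adjusted p = 0.0302), the replicate block (adjusted p = 0.0309) and no filter beyond 1 count (adjusted p = 0.0011), and missed with limma voom (adjusted p = 0.0604), at least 10 counts in 3 libraries (adjusted p = 0.113), library totals alone (adjusted p = 0.171) and the defensin covariate (adjusted p = 0.586). The SM6 call was lost with library totals alone (0.991, adjusted p = 0.0514) and when defensin share was a covariate (1.08, adjusted p = 0.0891). It was also lost without SM6 young replicate 2 or without any single SM6 old library, with an adjusted p of up to 0.228. Summed goblet cell markers were also higher in SM6 old (5652 to 11880 CPM) than in SM6 young libraries (3303 to 5044 CPM), and overlapped in Lgr5-GFP (1682 to 3354 CPM in old, 2985 to 3686 CPM in young). In SM6, 4 of 6 goblet and 5 of 7 enterocyte markers were called higher in old libraries. The part of these cell types in the Atoh1 result was not tested. Ascl2, a bHLH factor of the stem cells and also 1 of the stem cell markers, had log2 fold changes of 0.17 and -0.06 (adjusted p = 0.775 and 0.964), and the E protein genes Tcf3, Tcf4 and Tcf12 were not called.

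**Figure D3:**
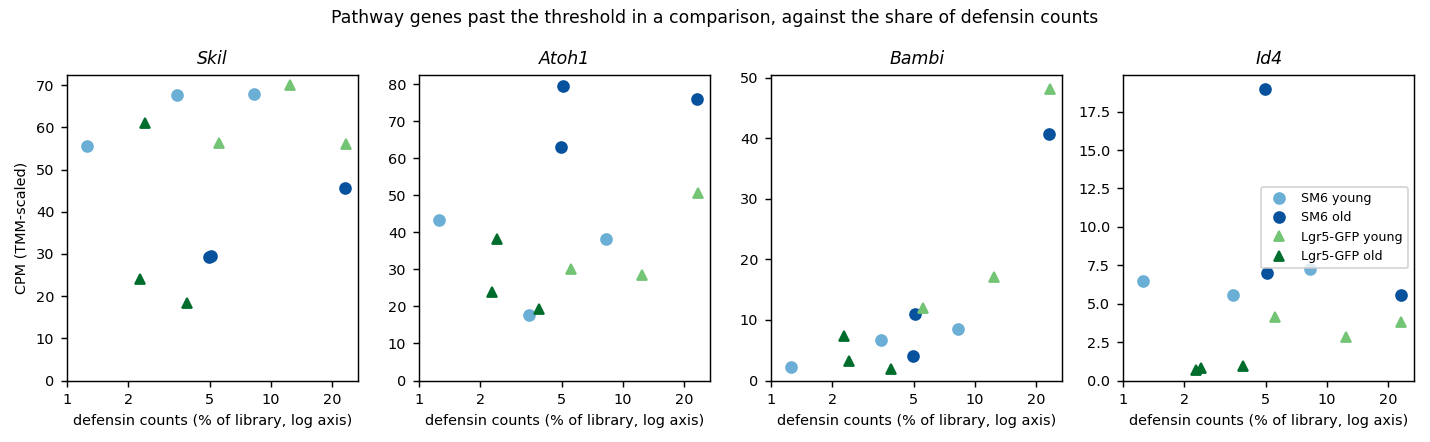
CPM (y axis, TMM-scaled, starting at 0) of the 4 pathway genes called in a comparison against the share of defensin counts in each library (x axis, percent, log axis), with circles for SM6 and triangles for Lgr5-GFP libraries. Bambi is highest, at 40.7 and 48.2 CPM, in the libraries with 23.1% and 23.2% defensin counts, while Id4 is lower in all Lgr5-GFP than in all SM6 libraries.

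In the TGF-beta and activin branch, 6 of 12 genes passed the filter and none was called. Its most abundant members by CPM, the receptors Acvr1c and Tgfbr1, had log2 fold changes of -0.42 and -0.30 in SM6 (adjusted p = 0.666 and 0.748 by edgeR) and of 0.09 and 0.09 in Lgr5-GFP (adjusted p = 0.972 and 0.964). The median of the 6 was -0.32 in SM6 and 0.07 in Lgr5-GFP.

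**Figure D4:**
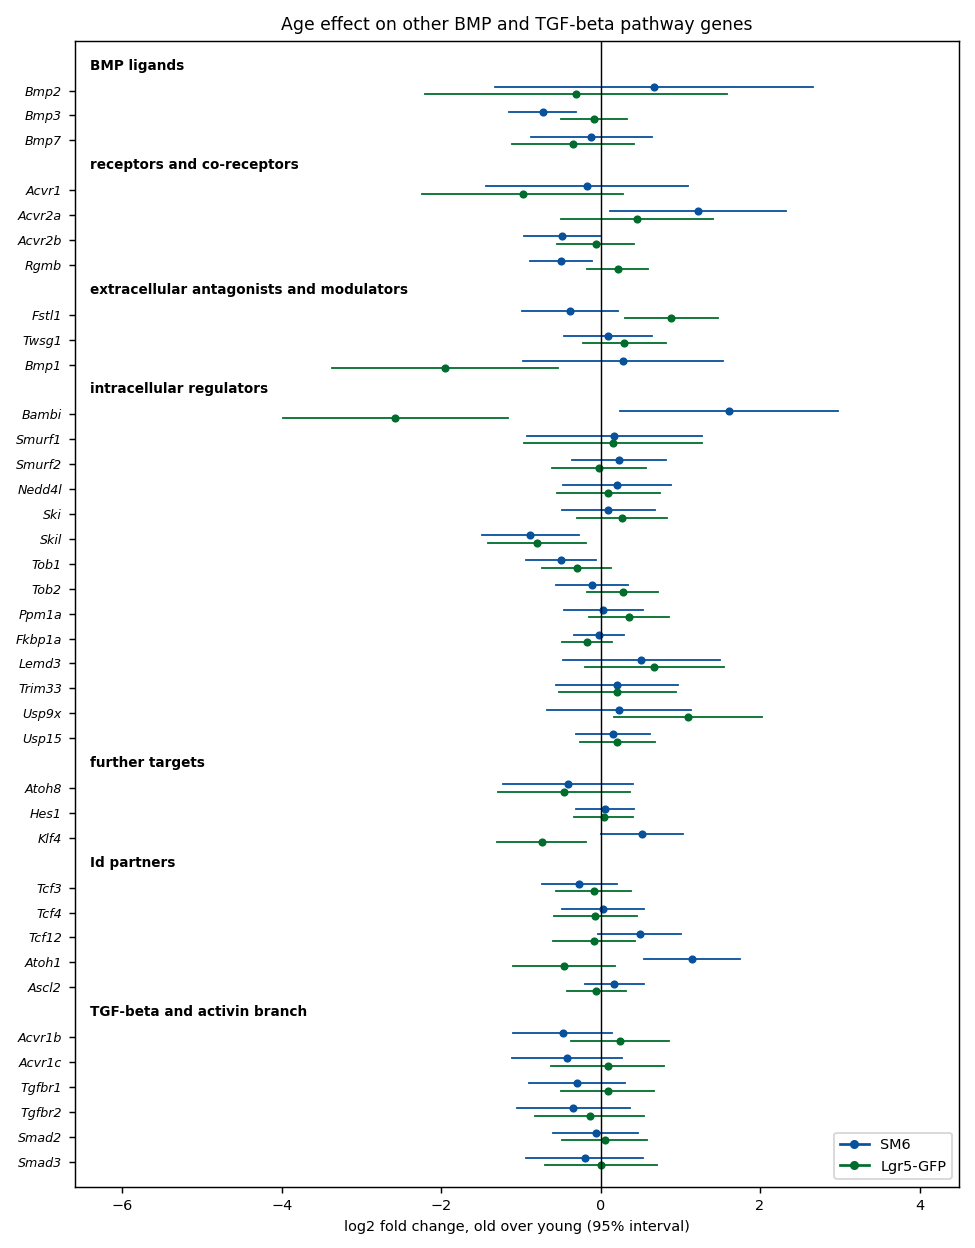
Log2 fold change of old over young ISCs (x axis) with its 95% interval (lines) for 38 of the 40 tested pathway genes, grouped by list, in SM6 (blue) and Lgr5-GFP (green). Id4 and Neurog3 are left out because a group held 3 or fewer counts. Skil lies below 0 in both isolations, at -0.88 and -0.80, and Bambi lies on opposite sides, at 1.61 and -2.58. When 1 library was left out, Bambi ran from 0.318 (without SM6 old replicate 3) to 2.11 in SM6. In Lgr5-GFP it ran from -3.31 to -1.66.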

How the data were processed

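ISCs of 12 mice (SM6 young, SM6 old, Lgr5-GFP young and Lgr5-GFP old, 3 each, grouped by the labels) were profiled by 3′ RNA sequencing. The authors aligned reads to GRCm38 with STAR 2.4.2a and deposited whole-number read counts per gene, obtained with featureCounts over GENCODE exons. The primers carried molecular identifiers, but whether the counts were collapsed by them is not given in the sources used here. Intervals on counts cover counting error only, and would be too narrow even for that if the reads were not collapsed. The strand setting of the counting is likewise not given. The counting used an earlier GENCODE release than the vM21 exons at hand, in which Bmpr1a shares 290 bases with an opposite-strand gene near its start, and Smad5 shares 100 bases with a misc_RNA gene.

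The members and gene lists were chosen with earlier results of these data known. Genes with more than 5 reads and at least 1 CPM in at least 1 library, the authors' filter, were tested (13368 of 54232). Counts were fitted with edgeR 4.0.16 (R 4.3.3; TMM scaling, 1 mean per group, quasi-likelihood test over all 12 libraries), and p-values were Benjamini-Hochberg adjusted over all tested genes. The scripts were tested on simulated data. Intervals are 95%. Correlations used log2 CPM with a prior count of 2 and permutation tests (two-sided, 100000 resamples). Library totals ran from 970472 to 3815425. No 2 libraries of a group agreed within sampling noise. The labels do not say whether replicate mice shared a litter or a day of sorting.

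Named were the 10 members; in each pathway list every gene called in a comparison, otherwise the 2 with the highest mean CPM; and the 3 genes most like each Id gene. Other genes named were chosen after their values were seen. Alternatives were library totals alone, DESeq2 1.42.0, limma voom (limma 3.58.1) with quality weights, edgeR's likelihood ratio test, no filter beyond 1 count, at least 10 counts in 3 libraries, each isolation alone, a replicate block, the defensin share as a covariate and leaving out each library. Gene positions and exon overlaps came from GENCODE on GRCm38 and promoter sequences from RefSeq (GRCm38.p6). Figures were drawn with matplotlib 3.10.9 (Python 3.11.15).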

Additional observations from a re-analysis of the deposited data

Results flagged for a closer look

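Bambi stood out for age effects that differed between the isolations. The Lgr5-GFP effect minus the SM6 effect was -4.19 on the log2 scale (adjusted p = 0.0367 by edgeR's quasi-likelihood test). It was -0.619 (adjusted p = 0.933) with the defensin share as a covariate. The defensin genes Defa17 and Defa24 were called for the same difference, so that fit cannot tell the 2 apart. The part of Paneth cells in the Bambi values was not tested.

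Klf4, a transcription factor of differentiating epithelium that was chosen after its values were seen, had every old library above every young one in SM6 (39.9 to 63.1 against 31.6 to 39.0 CPM) and every old library below every young one in Lgr5-GFP (14.5 to 30.1 against 32.1 to 46.0 CPM). The difference of the age effects was -1.26 and did not pass the threshold (adjusted p = 0.166 by edgeR). Of 7 enterocyte markers, 5 were called for a difference of the same sign, among them Krt20 (1.08 in SM6 and -1.20 in Lgr5-GFP, difference -2.28, adjusted p = 0.00772 by edgeR). The other two, Fabp1 (2.66 and 2.59) and Fabp2 (1.07 and 0.40), had estimates above 0 in both isolations and were not called for it. Their part in the Klf4 values was not tested. Groups of 3 libraries were not searched for single libraries far from the rest.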

How the results depend on the processing

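No alternative or fit without 1 library called a member where it gave an adjusted p. Smad6 was not fitted with at least 10 counts in 3 libraries, DESeq2 gave no adjusted p for Smad6 in 3 comparisons or Smad7 in 1, each isolation alone gave only the age effects, and the block gave no value between the isolations. Of the pathway genes, between 0 and 3 were called in SM6 when 1 library was left out. The 3 were called without Lgr5-GFP old replicate 2, where 360 of all 13339 tested genes were called. Between 0 and 1 were called in Lgr5-GFP, on average, for the difference of the age effects and between the isolations. Against 1 pathway gene called in SM6, Atoh1, the count was 2 with library totals alone (Bmp3 and Skil, without Atoh1), with the likelihood ratio test and with DESeq2 (Bmp3 and Atoh1) and with limma voom (Skil and Atoh1), 3 with each isolation fitted alone, 4 with no filter beyond 1 count and 0 when the share of defensin counts was a covariate. Over all genes the SM6 calls went from 323 to 440, 527, 395, 461, 371, 603 (of 23621 tested) and 282 under these alternatives, in that order. Against 0 in Lgr5-GFP, Bambi made it 1 with no filter beyond 1 count, with the likelihood ratio test and with each isolation fitted alone. Over all genes the Lgr5-GFP calls went from 63 to 274, 173 and 83 there. Against 1, Bambi, for the difference of the age effects, it was 2 (Bambi and Atoh1) with no filter beyond 1 count and with the likelihood ratio test, and 0 with at least 10 counts in 3 libraries, with limma voom and when the share of defensin counts was a covariate. Over all genes the calls for that difference went from 88 to 224, 158, 84, 67 and 34, in that order. DESeq2 gave Bambi no adjusted p for that difference and called Atoh1 instead. Against 1, Id4, between the isolations, the count was 0 with limma voom, where calls over all genes went from 47 to 28.

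Over the alternatives run for each member and comparison, 64 of 1005 estimates changed sign, from main estimates of at most 0.368 in size on the log2 scale, and none was called. Those listed here are for the comparisons in which the text gives a member's fold change, a restriction made after the values were seen. Scaling to library totals alone moved the median log2 fold change of all genes to -0.161 in SM6 and 0.164 in Lgr5-GFP. The estimate of Id3 in SM6 became -0.135, and in Lgr5-GFP those of Bmpr1a, Smad1 and Id2 became 0.00311, 0.0175 and 0.132. The correlation of Id1 with Id2 became 0.743 that of Id1 with Id3 0.385 and that of Id2 with Id3 0.518. With no filter beyond 1 count, Id3 in SM6 became -0.00213 and Smad4 in Lgr5-GFP -0.0146. With the defensin share as a covariate, Id1 and Id2 in SM6 became 0.0612 and 0.102. Leaving out 1 library moved the SM6 estimates of Id1 from -0.167 to 0.0385, of Id2 from -0.267 to 0.117 and of Id3 from -0.0706 to 0.145. In Lgr5-GFP it moved Smad4 from -0.13 to 0.131 and Id2 from -0.205 to 0.136, and between the isolations Id3 from -0.156 to 0.0126. The cause was not tested.

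With the replicate number as a block within each isolation, 2 pathway genes (Bambi and Atoh1) were called for the difference of the age effects and 1 (Bambi) in Lgr5-GFP, Id3 in SM6 became -0.000637, and no member was called. Over all genes this block called 112 for that difference and 95 in Lgr5-GFP. Libraries with the same number came from different mice, and their deviations had r from -0.0436 to 0.0217 over the 6 pairs. With 3 libraries in a group this cannot exclude a shared day of sorting, which the labels do not give. Depth limits Smad6 and Smad7, which held 0 to 24 counts in a library.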

Other observations

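The pathway genes not described above that reached an unadjusted p under 0.05 in an age comparison without passing the adjusted threshold are given as values, chosen after they were seen. In SM6, Acvr2a, a type II receptor for BMPs and activins, had a log2 fold change of 1.22 (adjusted p = 0.312 by edgeR), and Tob1, an inhibitor of Smad-driven transcription, had -0.49 (adjusted p = 0.301 by edgeR). In Lgr5-GFP, Usp9x, a deubiquitinase of Smad4, had 1.10 (adjusted p = 0.406 by edgeR). Bmp1, a protease that cleaves the antagonist chordin, had -1.95 in Lgr5-GFP (adjusted p = 0.288 by edgeR), with 43 counts in the 3 young and 6 in the 3 old libraries, and 0.28 in SM6.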
